A study of Mus musculus with 60 samples.

Results

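Lung tissue and oral swabs of the same mouse experiment were set side by side at day 28. The members were all 12 lung libraries and all 12 oral swab libraries among the 60 libraries of the series, chosen by their labelled sample type. Among the 7922 prokaryote sequence features of the series, 4825 had a count at either site. Of these, 3607 were counted in lung, 1897 in oral swabs and 679 at both sites, and 3595 were seen in 1 library only. They fell under 529 of the 566 genus labels of the series.

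The mice were males, 6 per arm. The PET arm received nanoparticles of polyethylene terephthalate, the polyester of drink bottles, by daily gavage for 28 days at 0.5 mg in 0.1 ml, and the control arm is labelled as not exposed. The sources used here give neither strain nor age, and no vehicle for the control arm. Lung DNA was extracted with a kit for blood and tissue and swab DNA with a bead-beating kit for soil, so kit and body site cannot be told apart in any comparison below. No label ties a lung library to a swab of the same animal, so the libraries were compared unpaired and the p-values measure the spread between libraries.

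The 16S rRNA gene is present in all bacteria, and its variable regions V3 and V4, the part sequenced here, separate most genera. A mouse mouth is known for Pasteurellaceae such as Muribacter and Rodentibacter and for streptococci. Lung tissue carries few bacteria, and amplicon libraries of such tissue are known to take up bacterial DNA from reagents and from other samples of a run. No blank libraries were analysed here.

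Lung libraries held 10543 to 326834 counts (median 61082) and oral swab libraries 119454 to 428830 (median 339358.5). In lung, 1.53% to 33.99% of the counts fell in features not assigned to bacteria or archaea, against 0.00236% to 4.20% in oral swabs. A count of 0 allows a share of up to 0.0298% in the shallowest lung library and up to 0.0007% in the deepest oral library, counting error only. Lung control 5 and lung control 6 carry library numbers from a separate series in the labels, and results that rest on them are given with and without them. No 2 libraries were duplicates.

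The sites held different communities. Site took 0.314 of the squared Bray-Curtis distances between feature shares (PERMANOVA R2, permutations within arms, p = 1e-05, the smallest they can give). The R2 was 0.515 on genus shares, 0.156 with Jaccard and 0.159 with Aitchison distances. In control libraries alone the R2 was 0.350 and in PET libraries alone 0.360 (exact permutation test over all splits of 6 against 6, p = 0.00216 in each). The median Bray-Curtis distance, where 1 means no shared counts, was 0.623 between oral libraries, 0.823 between lung libraries and 0.972 between a lung and an oral library. The lowest of the 144 distances between sites was 0.802. Lung libraries also lay farther from the centre of their group, at 0.527 ± 0.0531 (SD, n = 12) against 0.385 ± 0.116 in oral swabs (permutation test, p = 0.00173).

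Lung libraries were the more diverse. The Shannon index (natural log, at 10083 counts per library) ran from 2.70 to 6.07 in lung with a median of 4.69, and from 1.61 to 3.75 in oral swabs with a median of 2.11. The means were 4.59 ± 1.01 and 2.30 ± 0.635 (SD, n = 12 each), a difference of 2.29 (two-sided permutation test within arms, p = 3e-05, adjusted p = 9e-05 over 3 measures). Richness, the number of features expected at that depth, was 450 ± 218 in lung and 237 ± 89.2 in oral swabs (adjusted p = 0.00141). Without features seen in 1 library the difference was 66.5 features, 256 against 190 (permutation test, p = 0.0236). At full depth, where the swabs have more counts, the richness difference was 115.5 features (permutation test, p = 0.194). Ranges overlapped for both measures: oral PET 2 reached a Shannon index of 3.75, above the 2.70 of lung PET 4.

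Muribacter and Streptococcus filled the oral swabs. Muribacter, a genus of the family Pasteurellaceae described from mice, took 22.2% to 69.9% of oral counts with a median of 50.0%. In lung it took 0% to 1.04% with a median of 0.196%. The lowest oral share, in oral control 1, was far above the highest lung share, and the groups did not overlap. The edgeR log2 difference of lung minus oral was -7.43 ± 0.76 (SE), with an adjusted p of 1.55e-10.

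Streptococcus, the lactic acid producing cocci of tooth and tongue surfaces, took 4.30% to 70.0% of oral counts (median 28.7%) and 0.172% to 3.82% of lung counts (median 1.49%). Here too every oral library lay above every lung library. The log2 difference was -4.15 ± 0.61 (SE; edgeR, adjusted p = 2.34e-06). Together the 2 genera made up 40.3% to 94.5% of oral counts and 0.322% to 4.83% of lung counts. Muribacter led in 11 oral libraries and Streptococcus in oral control 1, where Muribacter had its lowest oral share. No other genus among the 288 tested had shares without overlap between the sites (2 of 288 with oral above lung, 0.694%, and 0 with lung above oral).

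Several genera with smaller shares were also higher in oral swabs. Rodentibacter, Pasteurellaceae of the rodent nose and throat that include opportunistic lung pathogens, took 0.126% to 22.4% of oral counts (median 1.36%), with its peak in oral PET 5. It was counted in 2 of 12 lung libraries, at 0.00311% in lung control 1 and 0.330% in lung control 3 (log2 difference -8.54 ± 1.78, SE; edgeR, adjusted p = 0.000292). Bergeyella, a Bacteroidota genus of animal mouths, was found in 10 oral libraries at up to 3.95% and in 3 lung libraries at up to 0.191% (-4.75 ± 1.43, SE; adjusted p = 0.0048). Lactobacillales without a genus name took 0.401% to 3.02% of every oral library and were counted in 8 lung libraries (-2.99 ± 1.05, SE; adjusted p = 0.015). Campylobacter, Porphyromonas, Lactobacillus and the unclassified Lachnospiraceae belong to the 10 highest oral genera by mean share, and none of the 4 passed the test between the sites on library totals. With TMM, 3 of them were higher in oral swabs: the unclassified Lachnospiraceae (log2 -3.20, adjusted p = 0.000271), Campylobacter (-3.55, 0.0187) and Lactobacillus (-2.65, 0.0113), whose sign was positive on totals (0.50). Porphyromonas was uneven: it took 2.09% to 5.66% in oral control 4, oral control 5 and oral PET 6, and at most 0.0326% in the other oral libraries.

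**Figure D1:**
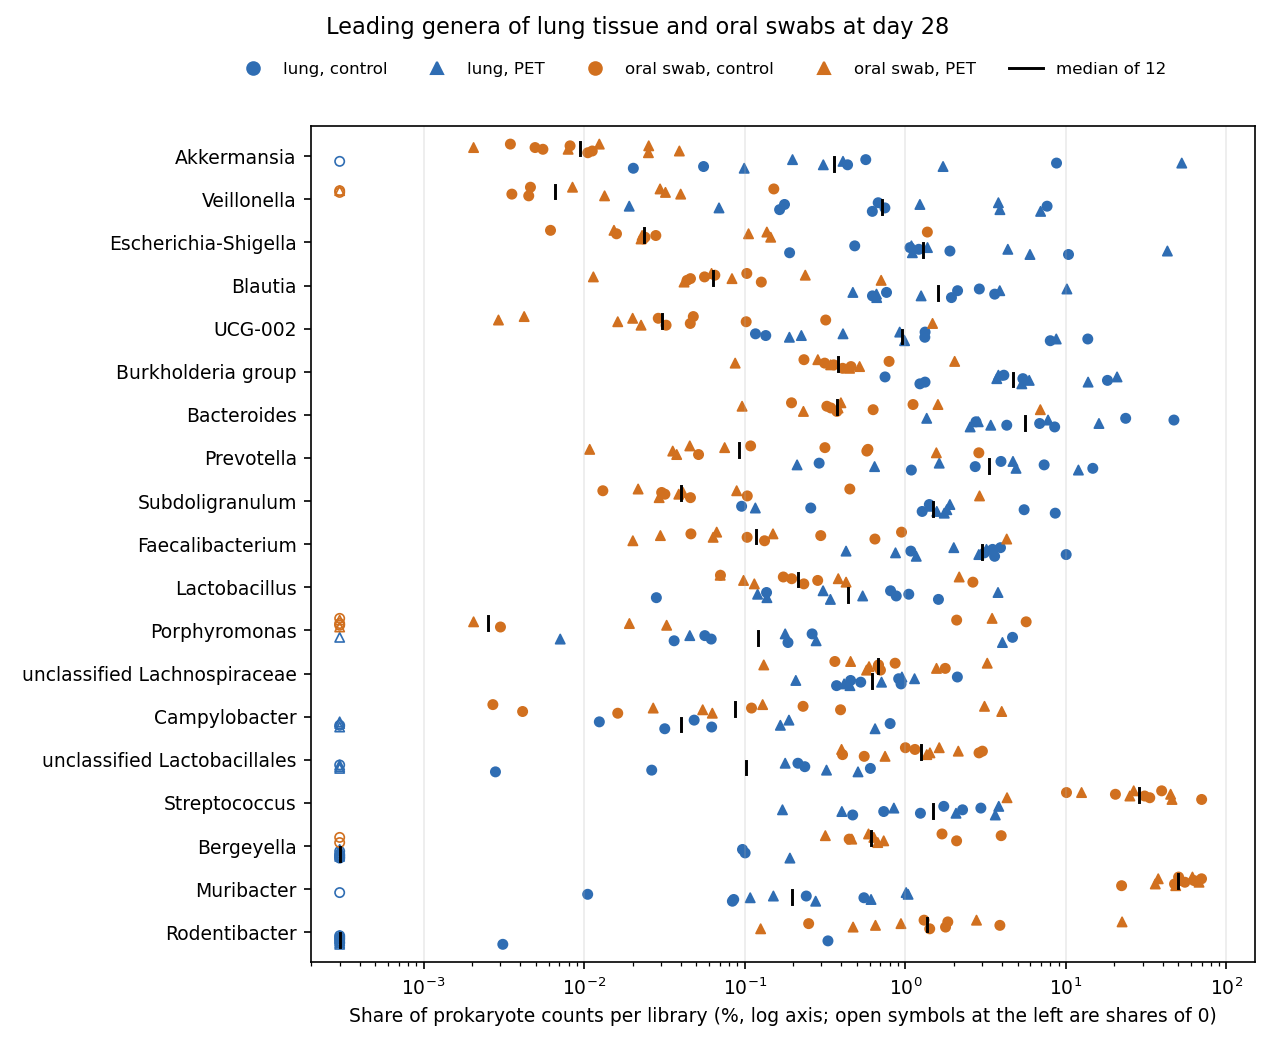
Share of prokaryote counts of each leading genus in every library, on a log axis in percent. Blue symbols are lung and orange symbols oral swabs, circles control and triangles PET, black ticks the medians of 12 libraries and open symbols at the left edge shares of 0. Muribacter and Streptococcus are the genera whose oral points all lie right of the lung points; for the others the ranges overlap.

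No genus led the lung libraries as a group. Bacteroides, Prevotella, Akkermansia, Escherichia-Shigella, Blautia and a Burkholderia group each led at least 1 library, 6 leading genera in all, with 8.74% to 52.7% of the counts. A lung library had 10 to 26 genera at 1% or more (median 21.5), against 2 to 17 in an oral library (median 4.5). Bacteroides, polysaccharide-degrading anaerobes of the gut, took 1.36% to 47.1% of lung counts (median 5.57%) and 0.0962% to 6.93% of oral counts (median 0.378%). Its highest lung shares, 47.1% and 23.6%, were in lung control 5 and lung control 6. The log2 difference was 3.39 ± 0.84 (SE; edgeR, adjusted p = 0.00118), and 2.58 without these 2 libraries (adjusted p = 0.00409).

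Burkholderia-Caballeronia-Paraburkholderia, soil and water bacteria that also occur on lists of reagent contaminants, took 0.747% to 20.8% of lung counts (median 4.71%) and 0.0871% to 2.03% of oral counts (median 0.383%), a log2 difference of 3.72 ± 0.73 (SE; adjusted p = 0.000146). Escherichia-Shigella, the enterobacteria that include E. coli, had a lung median of 1.29% and reached 42.9% in lung PET 3, against an oral median of 0.0236% (5.18 ± 1.11, SE; adjusted p = 0.000395). Akkermansia, a mucin degrader, held 52.7% of lung PET 4 and 8.74% of lung control 4, was at 0 in lung control 5, and stayed at or below 1.72% in the other lung libraries. In oral swabs it was present in all 12 libraries at no more than 0.0391% (8.37 ± 1.28, SE; adjusted p = 3.75e-06). Faecalibacterium and Blautia, fermenting Firmicutes of the gut, had lung medians of 2.99% and 1.60% and oral medians of 0.118% and 0.0636%. The highest oral values of Bacteroides, Faecalibacterium, Subdoligranulum and UCG-002 were all in oral PET 2, where Muribacter and Streptococcus together held 40.3%.

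Over all genera, most differences on library totals had lung higher. Of 288 genera tested with edgeR's quasi-likelihood test, 173 (60.1%) passed an adjusted p of 0.05: 161 (55.9%) were higher in lung and 12 (4.17%) higher in oral swabs. At an unadjusted p under 0.05, 181 passed. The median log2 difference of all tested genera was 3.90. Shares sum to 100% in each library, so each percent taken by Muribacter and Streptococcus in the swabs lowers the shares of all other genera there. Scalings that centre on the bulk of the genera moved the median to 1.37 (TMM), 1.19 (TMMwsp and DESeq2) and 0.52 (centred log ratios). The calls with lung higher were then 58 (20.1%) under TMM, 45 under TMMwsp, 36 in DESeq2 and 23 (7.99%) for centred log ratios. Those with oral higher were 30 (10.4%), 33, 33 and 40 (13.9%) in the same order. Differences near the median of 3.90, those of Bacteroides, the Burkholderia group, Prevotella, Blautia and Faecalibacterium among them, did not pass with TMM (adjusted p = 0.209, 0.416, 0.383, 0.126 and 0.895), and the sign of Faecalibacterium turned (-0.18). Without oral PET 2 the lung-higher calls on library totals were 182, and without the 2 lung control libraries of the separate number series they were 154.

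Under all 5 fits, 17 genera were called in the same direction, 8 with lung higher and 9 with oral higher. A permutation test per genus, added to these fits, did not call Solitalea, Jeotgalicoccus and unclassified Corynebacteriales (adjusted p = 0.494, 0.616 and 0.467), which left 6 of the 9 oral genera and all 8 of the lung genera. All 17 were also called on library totals when any 1 of the 24 libraries was left out. The 9 oral genera were Muribacter, Streptococcus, Rodentibacter, Bergeyella, unclassified Lactobacillales, Muribaculum, Solitalea, Jeotgalicoccus and unclassified Corynebacteriales. The last 3 were at 0 in all lung libraries and were rare in swabs: Solitalea, with 463 oral counts, was at least 46.3-fold higher there over the summed counts, with 3 counts as the bound for lung (25.6-fold without oral PET 5). Muribaculum, a gut anaerobe of mice, was counted in all 12 oral libraries (0.00263% to 0.0697%) and in 1 lung library, at 0.00325%.

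The 8 lung genera of that set were Neisseria, Veillonella, Fusobacterium, Leptotrichia, Howardella, TM7x, unclassified Saccharimonadaceae and unclassified Pasteurellaceae. Neisseria, Veillonella, Fusobacterium and Leptotrichia are core genera of dental plaque and saliva in people, and TM7x and Saccharimonadaceae are small bacteria that live on the surface of oral Actinomyces. Neisseria was counted in 11 lung libraries with a median of 0.458% and a highest share of 5.71%. In oral swabs it was counted in 4 libraries, at no more than 0.0625% (log2 difference 8.05 ± 1.56, SE; edgeR, adjusted p = 0.000146). Veillonella, a lactate-using coccus, was in all 12 lung libraries at 0.0191% to 7.63% and in 9 oral libraries at up to 0.152% (6.47 ± 1.26, SE; adjusted p = 0.000146). Fusobacterium took 0% to 5.82% of lung counts in 9 libraries and at most 0.0455% of oral counts (7.54 ± 1.65, SE; adjusted p = 0.000467). The lung counts of these genera lay mainly in lung control 4 and lung PET 1. They were 6764 and 5020 for Neisseria, 9038 and 8559 for Veillonella, and 6891 and 6797 for Fusobacterium. In the other lung libraries they were at most 649, 2001 and 587. Howardella was in 10 lung libraries at up to 0.218% and in no swab, which over the summed counts is at least 941-fold higher in lung (515-fold without lung control 1).

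**Figure D2:**
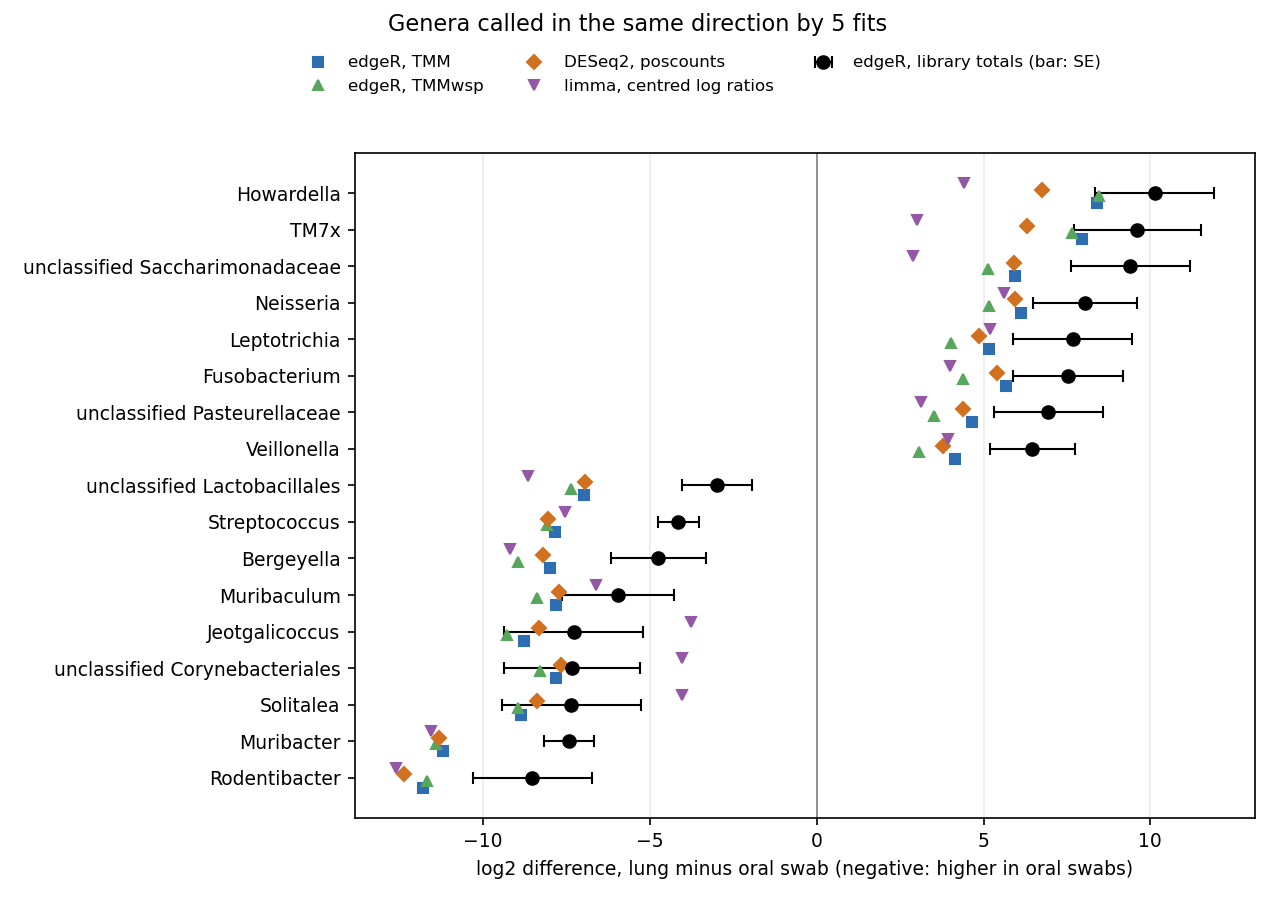
Log2 difference of lung minus oral swab for the 17 genera called in the same direction by 5 fits. Black points are edgeR on library totals with SE bars, and coloured symbols the fits with other scalings or tools. Negative values are higher in oral swabs; the scalings shift all genera to the left, except genera at 0 in a whole site under centred log ratios, and change no sign among these 17.

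Lists of genera with a known habitat describe the same contrast by group. Of 17 tested oral anaerobes, 12 (70.6%) were higher in lung and 0 higher in oral swabs on library totals, beside 55.9% and 4.17% of all genera. With TMM 8 (47.1%, beside 20.1%) and with centred log ratios 5 (29.4%, beside 7.99%) were higher in lung, and 1 was higher in oral swabs in each. The median log2 difference of the list was 6.74, beside 3.90 for all genera. Their summed share ran from 0.876% to 40.7% in lung with a median of 6.76%, and from 0.0418% to 13.98% in oral swabs with a median of 2.04%. The high lung values were 40.7% in lung PET 1, 38.2% in lung control 4 and 26.1% in lung control 2. They are values of single libraries and do not describe an arm. Catonella, 1 of the 12 called on library totals, did not pass without lung PET 1 (edgeR, adjusted p = 0.107). Prevotella, saccharolytic anaerobes of mouth and gut, gave the largest part in lung by mean share (4.51%). Its median was 3.33% in lung and 0.0918% in oral swabs. In swabs its mean share was 0.523%, below the 0.939% of Porphyromonas. Treponema, Capnocytophaga and Selenomonas, found in plaque, were each present in 6 to 8 lung libraries and in 1 to 4 swabs.

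The 11 tested rodent oral genera split. Muribacter, Streptococcus and Rodentibacter were higher in oral swabs. The other 8 were higher in lung: Neisseria, Gemella, Actinobacillus, Haemophilus, Rothia, Aggregatibacter, Granulicatella and Actinomyces. The 8 were 72.7% of the list, beside 55.9% of all genera, and the 3 were 27.3%, beside 4.17%. With TMM 6 of the 8 were called (54.5% of the list, beside 20.1% of all genera). With centred log ratios 2 were, Neisseria and Haemophilus (18.2%, beside 7.99%). The 3 oral genera were called under both. On library totals, Gemella and Rothia did not pass without lung control 4 (edgeR, adjusted p = 0.0821 and 0.145). Aggregatibacter did not pass without lung PET 1 (adjusted p = 0.265). The summed share of the list was 40.8% to 95.5% in oral swabs (median 90.2%) and 0.355% to 13.2% in lung (median 3.33%), without overlap. In swabs Muribacter and Streptococcus alone made up 40.3% to 94.5%, so this sum repeats the result of these 2 genera and does not describe the list as a group. Haemophilus was counted in 11 lung libraries at up to 1.83% and in 4 swabs at up to 0.0399%. Actinobacillus was counted in 3 lung libraries, lung control 4, lung PET 1 and lung PET 3, and in no swab.

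Gut and environmental groups took larger shares in lung. For gut anaerobe families, reagent genera and skin and bedding genera, lung-higher calls on library totals lay near or below the 55.9% of all genera. Among smaller lists, enterobacteria (5 of 8, 62.5%) and mucus-associated and sulfate reducing genera (4 of 6, 66.7%) lay above it. Butyrate producers (7 of 15, 46.7%), acetate and propionate producing Bacteroidota (3 of 9, 33.3%) and lactic acid bacteria and bifidobacteria (0 of 6) lay below. The gut anaerobe families took 30.996% to 89.9% of lung counts (median 50.8%) and 0.797% to 34.3% of oral counts (median 4.45%). Of their tested genera, 66 (53.7%) were higher in lung and 1 (0.813%) in oral swabs, with a median log2 difference over the tested genera of 3.54, below the 3.90 of all genera. With TMM 12 (9.76%, beside 20.1% of all genera) were higher in lung and 11 (8.94%, beside 10.4%) in oral swabs. With centred log ratios 9 (7.32%, beside 7.99%) were higher in lung and 19 (15.4%, beside 13.9%) in oral swabs. Of 14 tested common reagent genera, 8 (57.1%) were higher in lung, near the 55.9% of all genera, and 0 in oral swabs, and 1, Flavobacterium, was called with TMM. Their summed share was 0.945% to 29.8% in lung (median 7.55%) and 0.120% to 2.74% in oral swabs (median 0.598%), and its part in the other results was not tested. Sphingomonas, a soil and water bacterium on that list, had a lung median of 1.31% and an oral median of 0.0596%. Of 14 skin and bedding genera, 6 (42.9%, below the 55.9% of all genera; 1 with TMM) were higher in lung, Cutibacterium and Corynebacterium among them (the latter -1.31 with centred log ratios), and Jeotgalicoccus was higher in swabs.

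Among the 8 listed bacteria of the rodent airway, 4 had counts at either site and were tested. Klebsiella, an enterobacterium able to cause pneumonia, was counted in 6 lung libraries at up to 2.45% and in no swab, which over the summed counts is at least 7138-fold higher in lung (edgeR, adjusted p = 5.19e-05; 0.0581 with centred log ratios). Of its 6419 lung counts, 83.9% were in lung control 2, and without that library the bound was 1438-fold. Rodentibacter was the member higher in oral swabs. The summed share of the list had a median of 0.0646% in lung and 1.37% in oral swabs, the latter close to the median of Rodentibacter alone.

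At the level of single sequence features, 816 were tested and 477 (58.5%) differed between the sites, 292 higher in lung (35.8%) and 185 higher in oral swabs (22.7%). With TMM the split was 173 and 238, with DESeq2 85 and 152, and with centred log ratios 45.8% of the 277 calls had lung higher. A genus name at both sites did not mean the same features. Over all genera, 679 features were counted at both sites, 18.8% of the lung features and 35.8% of the oral features. Among features seen in at least 2 lung libraries, which leaves out the many seen once, 445 of 723 (61.5%) were also counted in a swab.

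The shared part varied between genera. For Bacteroides, 38 of 52 such lung features were also counted in a swab, and features at both sites held 90.9% of its lung counts and 83.2% of its oral counts. Faecalibacterium had 6 of 7 and UCG-002 had 8 of 8. Neisseria had 8 oral features, none of them in lung, and 0 of its 7 repeated lung features were in a swab. Of the 12 oral features of Fusobacterium 3 were in lung, and they held 23.3% of its lung counts. Of its 5 repeated lung features 3 were in a swab. Leptotrichia had 68 lung and 7 oral features with 1 in common, and 0 of its 3 repeated lung features were in a swab. Veillonella had 163 and 36 with 7 in common, which held 25.7% of its lung and 25.05% of its oral counts. Of its 11 repeated lung features 6 were in a swab. Prevotella was the most varied, with 360 lung features, 95 oral features and 24 in common. Of its 29 repeated lung features 16 were in a swab. On repeated features, Fusobacterium, Veillonella and Prevotella thus lay below but near the 61.5% over all genera, unlike Neisseria (0 of 7) and Leptotrichia (0 of 3). Neisseria, Leptotrichia and Fusobacterium were rare in swabs. They had 268, 246 and 195 counts in oral control 5 and at most 65 in any other swab. Their overlap, or lack of it, therefore rests on few oral counts, mainly of 1 swab. Bergeyella, although named at both sites, had 4 lung features and 2 oral features with none in common.

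**Figure D3:**
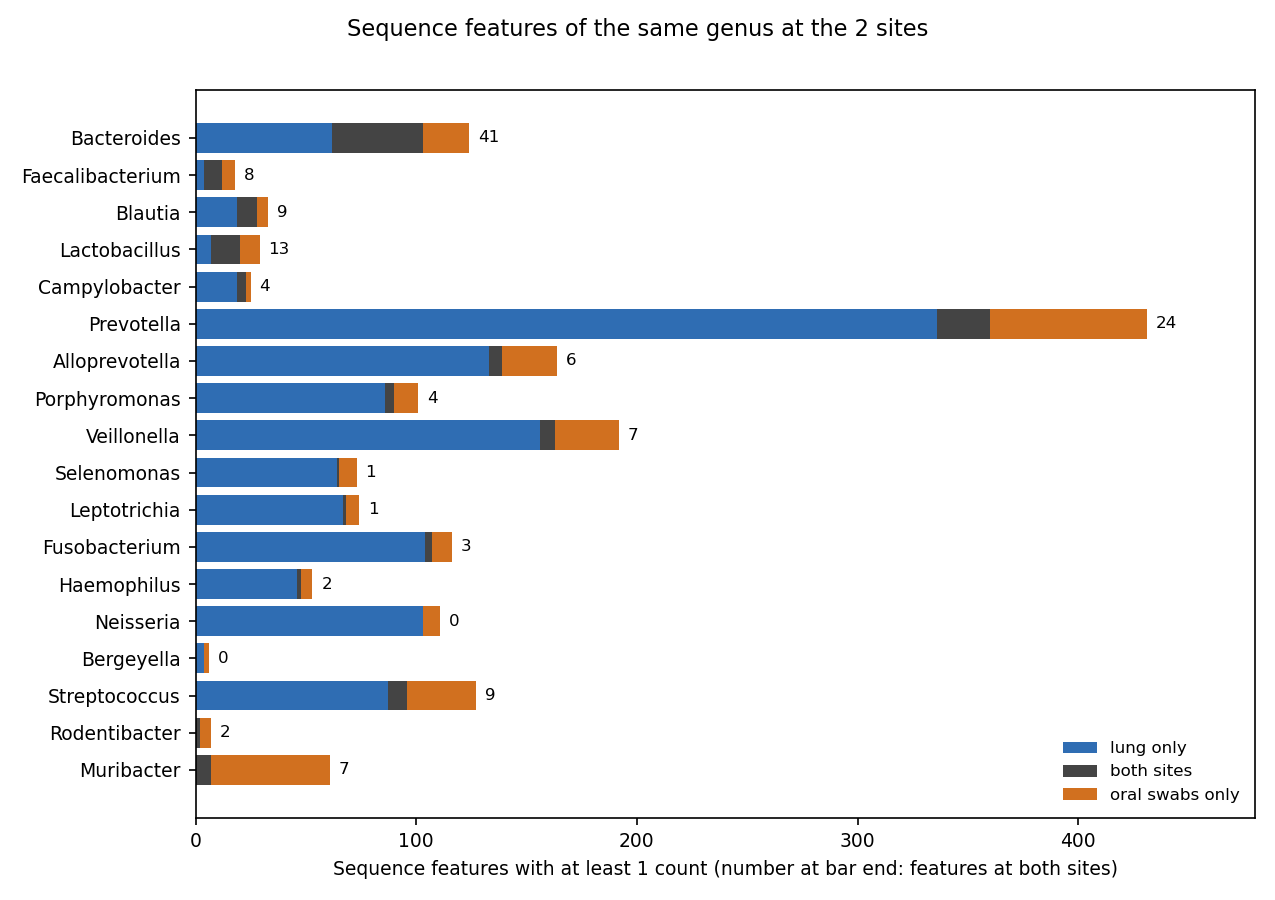
Number of sequence features with at least 1 count in 18 genera, split into features of lung only (blue), of both sites (dark) and of oral swabs only (orange). The number at the end of a bar is the count of features at both sites, 41 for Bacteroides and 0 for Neisseria and Bergeyella.

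Streptococcus differed in its make-up as well as its level. Feature 1, classified as Streptococcus danieliae, a species described from mice, led the genus in 11 oral libraries and held 74.6% of oral Streptococcus counts. It held 6.40% of the summed lung Streptococcus counts. The feature with the most lung counts, feature 6, held 22.4% of lung and 0.0101% of oral Streptococcus counts. Feature 1, 6, 7 or 8 led the genus in a lung library, with feature 1 leading in lung control 3 and lung PET 2, 4 and 5. Lung Streptococcus was spread over 96 features, against 40 in oral swabs.

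Muribacter showed the reverse. It had 61 oral features and 7 lung features, all 7 of which were also in swabs. The leading oral feature changed from library to library: Muribacter feature 2 led in 5 libraries, feature 3 in 3, feature 1 in 2 and feature 4 in 2. Feature 1 made up 98.5% of Muribacter in oral PET 6 and was at 0 in oral PET 2, where feature 3 made up 86.4%. Feature 4 made up 58.9% in oral control 3 and 54.9% in oral control 5, and in the other 10 oral libraries it reached at most 56 counts. All 4 are classified as Muribacter muris. In the 11 lung libraries with Muribacter counts, feature 2 led in 8 and feature 1 in 3.

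The leading Streptococcus and Muribacter features of the swabs occurred in lung at low counts. Streptococcus feature 1, with 776699 oral counts, had 28 to 148 counts in each of the 10 lung libraries of the main number series, although the totals of these libraries ran from 10543 to 326834. In lung control 5 and lung control 6 it had 0. Muribacter feature 2 had 29 to 175 counts in the same 10 lung libraries and 11 and 0 in the other two. In the day 28 stool and colon libraries of the same series of numbers, Streptococcus feature 1 was counted in 21 of 22, at no more than 151. The 1050 lung counts of this feature equal 0.135% of its oral counts. The ranges of Streptococcus feature 1 did not overlap in share between the sites (lung 0% to 0.783%, oral 1.15% to 58.1%).

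Other abundant oral features had no lung count at all. Streptococcus feature 2, also classified as S. danieliae, had 162859 oral counts, and Muribacter feature 5 had 160599. Both were at 0 in all 12 lung libraries and in the 22 gut libraries, which puts them at least 16272-fold and 16046-fold higher in swabs over the summed counts. In the 11 swabs with at least 1000 counts of both, Streptococcus feature 1 was 2.51 to 5.69 times as abundant as feature 2 (median 5.34). Oral PET 2 was not among them: it had 4570 counts of feature 1 and 0 of feature 2. The 1050 lung counts of feature 1 were spread over 10 libraries at 28 to 148 each. At the median ratio of the 11 swabs they would stand beside about 197 counts of feature 2, and 0 were counted. The cause of this was not tested. Rodentibacter feature 2 (R. heylii, 30218 oral counts) and Bergeyella feature 1 (37389 oral counts) were likewise at 0 in lung.

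**Figure D4:**
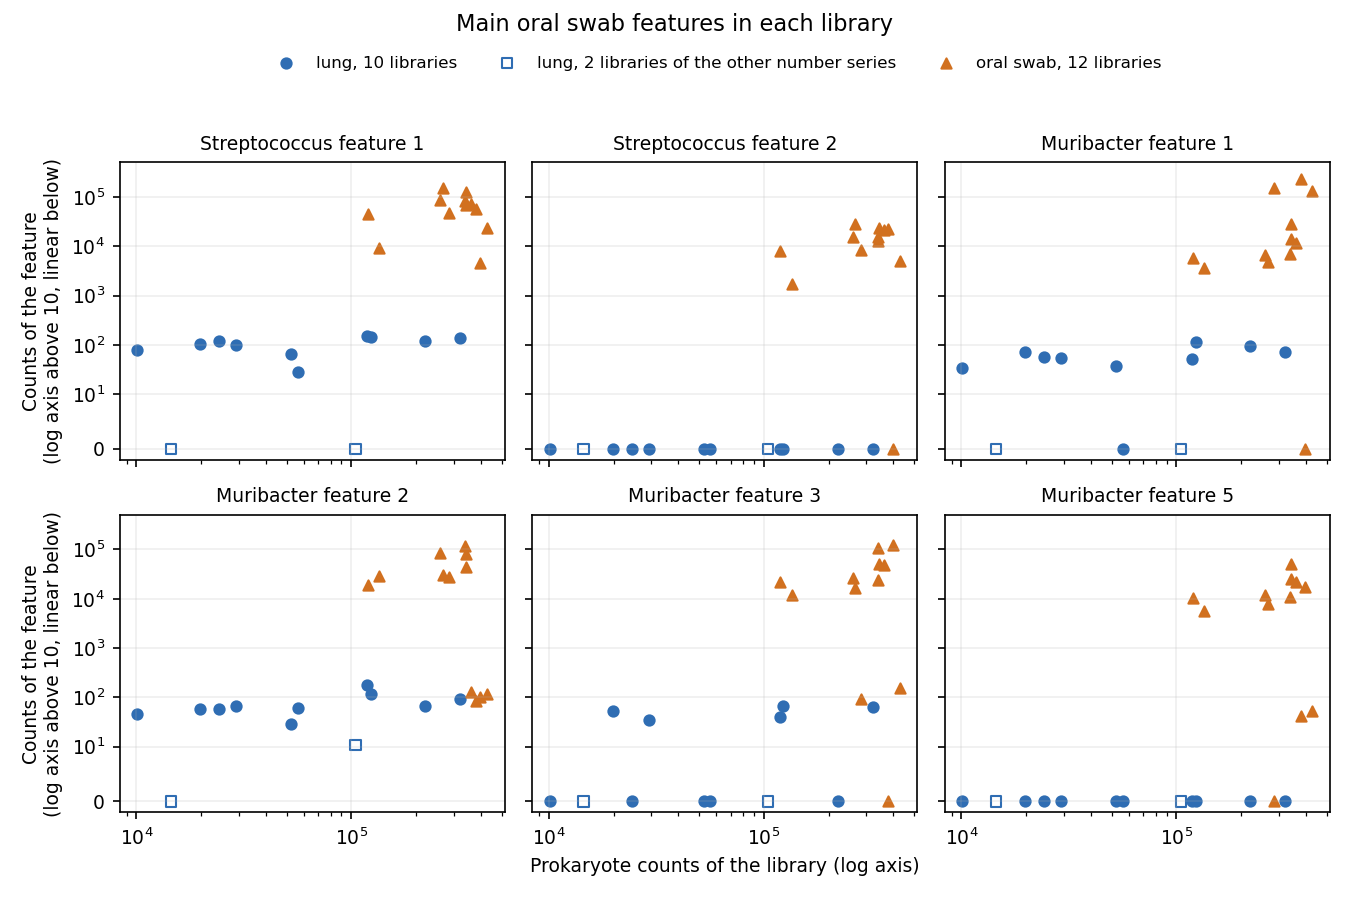
Counts of 6 main oral swab features against the prokaryote counts of each library, both on log axes (counts linear below 10). Blue circles are 10 lung libraries, open squares the 2 lung control libraries of the separate number series, and orange triangles the 12 oral swabs. Streptococcus feature 1 stays between 28 and 148 in the 10 lung libraries across their depths, and Streptococcus feature 2 and Muribacter feature 5 are at 0 in all lung libraries.

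By detection in at least 3 libraries of a site and none of the other, 485 features fell into 3 classes. Of these, 23.5% were specific to lung and 158 (32.6%) to oral swabs, and 213 (43.9%) were found in at least 3 libraries of each site. Lung-specific features took 2.12% to 9.04% of lung counts (median 3.83%). They were spread over 70 genera, with 7 in Prevotella, 5 each in Bacteroides, Veillonella and Alistipes and 4 in Neisseria. Over the day 28 libraries, 99.1% of them had their highest mean share in lung. With detection required in at least 6 libraries, 12 lung-specific and 69 oral-specific features were left. Without lung control 5 and 6, 92 were lung-specific, 174 oral-specific and 203 shared.

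Oral-specific features held 4.55% to 21.6% of oral counts (median 15.5%), a part that came mostly from a few abundant features such as Streptococcus feature 2 and Muribacter feature 5. By number they were mainly gut bacteria: 72.8% of the 158 had their highest mean share in stool and 24.7% in oral swabs. Unclassified Lachnospiraceae gave 21 of them, the Clostridia vadinBB60 group 15 and unclassified Muribaculaceae 10, all anaerobes of the mouse gut. Muribacter gave 10 and Streptococcus 8. When all libraries were thinned to 10083 counts, 99 oral-specific features (26.5% of the 3 classes) were left and lung-specific features made up 37.7%, so the order of these classes turned at equal depth.

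Shared features held a median of 60.4% of lung counts and 79.5% of oral counts. By mean share, 167 of the 213 were highest in lung, 29 in stool, 9 in oral swabs and 8 in colon. The oral part of this sharing moved with low counts. When counts under 0.1% of a feature's total over the series were set to 0, a step added after these counts were seen, 172 features were shared and they held 2.13% of oral counts and 54.0% of lung counts. The cut follows each feature's own total. It removes every lung count of Streptococcus feature 1, at most 148 in a library beside 776699 oral counts. The oral value after this step therefore cannot show whether such features are shared. At genus level, 30 genera were specific to lung, 6 to oral swabs and 147 were shared. Howardella, Methanobrevibacter, TM7x and Klebsiella were among the lung-specific genera, and Solitalea and Jeotgalicoccus among the oral-specific ones.

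Most lung counts lay in features that also occurred elsewhere in these mice. A median of 54.1% of lung counts (28.2% to 74.2%) fell in features detected in at least 3 oral swabs and in at least 3 of the 24 stool and colon libraries of day 28. Features found in swabs but not in the gut held 4.48% and features found in the gut but not in swabs 3.15%. Features of neither held 34.3%, with the highest values, 67.1% and 65.9%, in lung PET 1 and lung control 4, the libraries with the most oral anaerobes. Of oral counts, a median of 78.1% lay in features of both lung and gut and 16.5% in features of neither. With the low counts set to 0 as above, 1.77% of oral counts were left in features of both and 95.4% in neither. The same limit of the cut for the leading oral features applies to these values.

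**Figure D5:**
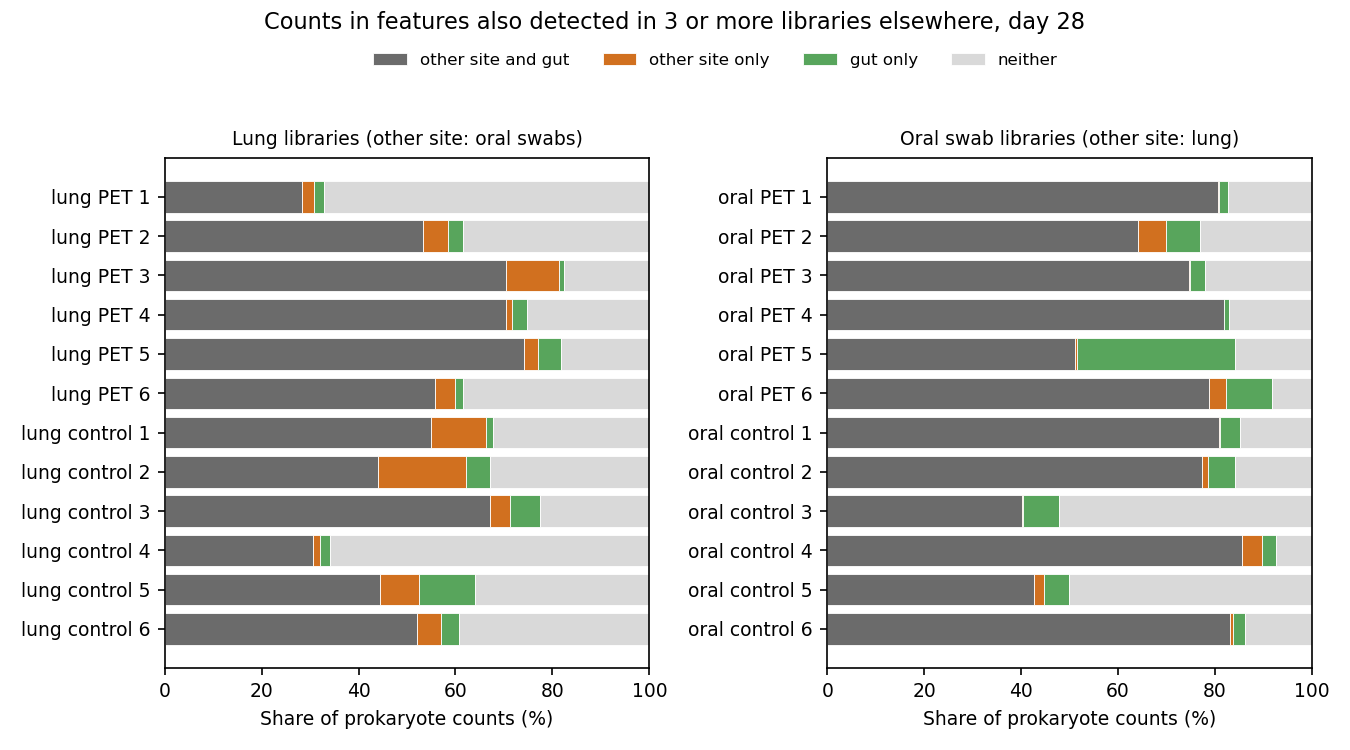
Share of prokaryote counts of each library by where its features were also detected in at least 3 day 28 libraries, with lung libraries on the left and oral swabs on the right. Dark bars are features of the other site and the gut, orange of the other site only, green of the gut only and light grey of neither. Neither holds 67.1% in lung PET 1 and 65.9% in lung control 4, and the other site and gut hold a median of 78.1% in oral swabs.

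In each arm, Muribacter and Streptococcus took a larger share of every oral swab than of any lung library. Muribacter took 22.2% to 69.9% of control and 36.02% to 67.5% of PET swabs, and 0% to 0.552% of control and 0.108% to 1.04% of PET lungs. Streptococcus took 10.1% to 70.0% and 4.30% to 45.8% of control and PET swabs, and 0.470% to 2.95% and 0.172% to 3.82% of control and PET lungs. Within the control arm 37.5% of the 288 genera were higher in lung and 10 (3.47%) higher in oral swabs (edgeR). Within the PET arm 37.8% were higher in lung and 8 (2.78%) in oral swabs. Arm took 0.0859 of the squared Bray-Curtis distances in lung (exact permutation test, p = 0.591) and 0.0915 in oral swabs (p = 0.374).

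The site difference itself differed between the arms for 15 of 288 genera (5.21%; edgeR interaction, adjusted p under 0.05), 11 (3.82%) with a larger lung-minus-oral value in PET and 4 (1.39%) with a smaller one. It was 15 with TMMwsp and 17 with DESeq2, and 0 with TMM, with centred log ratios and with the stricter low count filter. At an unadjusted p under 0.05, 60 genera passed on library totals, 57 with TMM and 14 with centred log ratios. Of the 10 interaction genera named by rule, 9 had no count in any lung library of 1 arm. Rodentibacter, with 90 lung counts in 2 control lungs and 0 in PET lungs, differed by -11.14 (adjusted p = 0.0455). Duganella and Serratia, environmental Proteobacteria, were each counted in 4 PET lungs and in no control lung (13.43 and 13.07, adjusted p = 0.0455 each). Tyzzerella, a gut anaerobe, had counts in 5 control and 2 PET lungs (-10.73, adjusted p = 0.0455), with 5.24% in lung control 5. Leaving out 1 library at a time gave 0 to 20 calls. There were 0 calls without lung control 1, 5 or 6, without lung PET 4, 5 or 6, and without oral PET 1, 2, 4 or 5, and 20 without lung PET 1.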

How the data were processed

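Counts are the authors' deposited 16S V3-V4 counts per sequence feature and library (paired reads of 300 bases). Taxon names and a classifier confidence, a fraction from 0.700 to 1 for these features, come from the authors' deposited taxonomy table. Per the submitters' processing notes, cutadapt and Bowtie2 with GRCm39 were used, with no versions. Denoiser, classifier and taxonomy reference: not given in the sources used here.

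Features assigned to bacteria or archaea were kept and summed by genus. Taxa with at least 10 counts, present in at least 3 of 24 libraries, were tested with edgeR 4.0.16 in R 4.3.3 (quasi-likelihood, exposure arm as block, library totals as offsets) with Benjamini-Hochberg adjustment at 0.05. DESeq2 1.42.0 and limma 3.58.1 on centred log ratios were alternatives. The code was tested on simulated data. PERMANOVA and diversity used 100000 permutations within arms, or all 462 splits within 1 arm. Floors of 3 counts cover counting error only, since PCR reads carry no molecular identifiers.

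A fold written as "at least" sets a site's summed share against 3 counts over the other site's summed total. Genera were named by fixed rules: the 10 highest by mean share at each site, the 12 largest called folds in each direction among genera in at least 6 libraries of the higher site, called members of the habitat lists, and up to 6 called interactions each way. Features were the 5 highest by mean share at each site and in each class. Unclassified Pasteurellaceae, Alistipes and the genera with most class members were named after their values were seen. Replicate numbers only name libraries. Members and lists were chosen with earlier results of these data known.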

Additional observations from a re-analysis of the deposited data

Results flagged for a closer look

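Within groups of 6 libraries, 10 of 88 groups tested had a library set apart from the others (Dixon's test on log2 shares or on richness), and chance alone gives about 1 in 20. Shares within a library are linked, so these tests are not independent and the comparison is rough. Oral PET 2 was the highest of its group for Faecalibacterium (4.28%), Subdoligranulum (2.90%) and UCG-002 (1.48%), all fermenting gut bacteria. Muribacter was lowest in oral control 1 (22.2%), Escherichia-Shigella highest in oral control 5 (1.37%), and Veillonella lowest in oral PET 4 (0%). Veillonella was also at 0 in oral control 3 and oral control 4, so this flag rests on a floor value. In lung, richness was highest in lung PET 1 (904 features at 10083 counts), Bergeyella was highest in the same library (0.191%), Rodentibacter highest in lung control 3 (0.330%) and Subdoligranulum lowest in lung PET 4 (0.116%).

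The difference between lung and oral swab itself differed between the arms for 10 named genera (edgeR interaction, PET minus control, log2). It was negative for Rodentibacter (-11.14), Coprobacillus (-13.80), Oxalobacter (-13.31) and Tyzzerella (-10.73). It was positive for Duganella (13.43), unclassified Butyricicoccaceae (13.36), Serratia (13.07), unclassified Micrococcaceae (12.70), Pantoea (11.62) and Lachnospiraceae UCG-006 (11.36). Of these 10 genera, 9 had a site and arm group without counts, so the sizes depend on the prior count and are no bounds.

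Features not assigned to bacteria or archaea, left out of the comparisons, held a median of 6.81% of lung counts and 0.0479% of oral counts.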

How the results depend on the processing

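No paired analysis was possible because no label ties a lung library to an oral library of the same animal. Genus calls (173; 55.9% of tested genera higher in lung, 4.17% in oral swabs) became 88 (20.1% and 10.4%) with TMM, 78 (15.6% and 11.5%) with TMMwsp, 69 (17.1% and 15.6%) with DESeq2 and 63 (7.99% and 13.9%) with centred log ratios. Lung was higher in 93.1% of the calls on totals, and in 65.9%, 57.7%, 52.2% and 36.5% in that order. TMM moved the median log2 difference by -2.53. No low count filter gave 267 (47.6% higher in lung), control libraries alone 100 (39.3%), PET libraries alone 78 (34.1%, and 3.37% in oral swabs) and families 91 (63.6%). Leaving out 1 library gave 155 to 193 calls, 50.9% to 65.2% higher in lung and 3.83% to 4.96% in oral swabs.

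Feature calls (477; 35.8% and 22.7% of tested features) became 237 (14.7% higher in lung) with DESeq2, 277 (15.6%) with centred log ratios, 3287 (62.1% and 6.03%) without a filter, 217 (32.5% and 22.2%) with a stricter one, 203 (20.97% and 17.04%) in control and 186 (19.8% and 21.1%) in PET libraries. TMM gave 21.2% higher in lung, the permutation test 55.4% and 9.68%, and thinning 15.8% in oral swabs. Leaving out 1 library gave 423 to 541, 31.7% to 46.9% and 20.6% to 24.97%. Interaction calls (15) were 15 with TMMwsp, 17 with DESeq2 and 0 with TMM, centred log ratios and the stricter filter, and were 0 to 20 without 1 library.

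Site had an R2 of 0.156 (Jaccard) to 0.515 (genus shares) over the distances tried and 0.299 to 0.340 without 1 library, the Shannon difference 2.12 to 2.46, richness 165 to 235 and the distance to the centre 0.126 to 0.160. Richness without thinning differed by 115.5. Of the features in the 3 classes, detection in 6 libraries left 7.10% lung-specific, 40.8% oral-specific and 52.1% shared, and of the genera 5.05%, 3.03% and 91.9%. Thinning gave 37.7% lung-specific, 26.5% oral-specific and 35.8% shared features and 33.3% lung-specific genera. Oral-specific genera were 6.17% with a minimum of 10 counts and 5.46% with low counts set to 0. The median lung share in features of both swabs and gut was 71.2% with 1 reference library, 35.3% with 6 and 92.4% by genus, with 4.04% in neither by genus. The oral share in both was 98.1% by genus and 1.77% with low counts set to 0, and in neither 35.6%, 0.171% and 95.4% with 6 libraries, by genus and with low counts set to 0.

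Signs turned for Faecalibacterium (-0.18 TMM, -0.24 TMMwsp, -0.28 DESeq2), Lactobacillus (-2.65 TMM, -2.94 TMMwsp, -2.77 DESeq2, -2.59 centred log ratios), Corynebacterium (-0.013 TMMwsp, -1.31 centred log ratios), Staphylococcus (-0.41 TMMwsp, -0.017 DESeq2) and Leifsonia (-0.034 centred log ratios). The cause was not tested. The low count step, the leaving out of lung control 5 and 6 for specific and shared features, and the bounds without 1 library were chosen after seeing the data. Depth limits absence in lung most, where a count of 0 allows up to 0.0298%.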
